A study of Mus musculus with 2 samples.

Results

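T follicular helper-like CD4 cells were the 81 cells, of 15278 splenic T cells and 5217 conventional Cd4 T cells, that carried Cd4 together with at least 2 of 5 follicular helper markers. The markers were Cxcr5, Pdcd1, Bcl6, Tox2 and Il21. A member also had at least 1 molecule of a CD3 chain and none of Cd8a, Cd8b1, Foxp3, Zbtb16, Klrb1c and Cd79a. The saline pool held 24 of these cells, the pool taken 4 h after remimazolam held 26, and the pool taken 8 h after it held 31. The markers are measured values, so their levels and the contrast they define describe how the cells were chosen and are not findings.

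The spleens came from female C57BL/6 mice (C57/BL6N in the sample labels), 3 per group, given saline or 6 mg/kg remimazolam, a short-acting benzodiazepine that acts on GABA(A) receptors. The saline group is labelled 0 h, so no saline mice matched to 4 h or 8 h were analysed here. Cells of the 3 mice of a group shared 1 antibody-borne sample tag, and the 3 tagged pools were captured together and read as single-cell RNA libraries. On the sorted population the labels differ: one field names CD45+CD3+CD5+ cells, while a protocol speaks of CD45+ cells alone. The labels give no genetic modification and no immunisation for any group.

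T follicular helper cells are CD4 T cells that enter B cell follicles and support germinal centres. CXCR5 draws them toward the follicle and the repressor BCL6 holds their programme in place. Contact through ICOS, SAP and CD40 ligand, and the cytokine interleukin 21, carry their help to B cells, while PD-1 restrains them. They lose the receptors that keep naive cells in the T cell zone and in circulation, such as CCR7 and S1PR1. A follicular regulatory subset shares CXCR5 and BCL6 with them but carries FOXP3, and that gene was barred here by the rule.

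The other conventional Cd4 cells had similar depth in the 3 pools, and 1 cell class was set against another inside each pool. Kept cells with a single tag numbered 16123, and no cell index carried more than 1 tag call. Members had a median of 2875 molecules per cell, against 2424.5 in the other 5136 conventional Cd4 cells. By pool the median was 3326 in saline, 2542 at 4 h and 2857 at 8 h in members. In the other cells it was 2445, 2386.5 and 2440.5. The members summed to 129224 molecules in the saline pool, 103329 at 4 h and 107342 at 8 h. A gene's level is given in CPM, its molecules as a proportion of all molecules summed over the cells of a class in a pool, scaled in the usual way for count data.

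A few members were far richer in molecules than the rest, and this touches several results below. Of the 81 members, 11 held more than 3 times the median molecules of their pool's conventional Cd4 cells, against 20 of the 5136 other cells. There were 5 such members in the saline pool, 4 at 4 h and 2 at 8 h, and they supplied 53.5%, 43.6% and 19.5% of the member molecules of those pools. All 11 carried at least 1 molecule of Mki67 or Top2a, genes of cycling cells, and so did 17 of the other 70 members. The amounts differed widely. A saline cell of 22016 molecules held 38 of Mki67 and 61 of Top2a. A saline cell of 7857 molecules held 1 of Mki67 and 0 of Top2a, and an 8 h cell of 8699 held 0 and 1. Detection alone therefore does not show that each of the 11 was cycling. These cells are called high-molecule members from here on. Results were also computed without all cells above that limit, a setting chosen after the data had been seen.

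All 5 markers were found among the members, each in a minority or modest majority of cells. Cxcr5, the follicle-homing chemokine receptor, was detected in 66.7% of members. Its level was 193 CPM in the saline pool, 319 CPM at 4 h and 456 CPM at 8 h. Tox2, a nuclear factor of the follicular programme, was detected in 66.7% of members and Pdcd1, which encodes PD-1, in 55.6%. Bcl6 was detected in 39.5% of members and Il21, the cytokine gene, in 37.0%. Over all members the levels were 327 CPM for Tox2, 315 CPM for Cxcr5, 229 CPM for Pdcd1, 182 CPM for Il21 and 115 CPM for Bcl6. The most frequent pairs were Cxcr5 with Tox2 in 34 members, Pdcd1 with Tox2 in 29 and Cxcr5 with Pdcd1 in 27. Just inside the threshold 42 cells had 2 markers, 25 had 3 and 14 had 4, and no cell had all 5. Just outside it 331 conventional Cd4 cells had a single marker.

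The marker genes lie on different chromosomes, in GENCODE M21 on GRCm38. Cxcr5 is at chr9:44511787-44561877, Pdcd1 at chr1:94038305-94052553, Bcl6 at chr16:23965052-23988852, Tox2 at chr2:163203125-163324170 and Il21 at chr3:37222759-37232636. All 5 are annotated as protein-coding, and Tox2 alone among them lies on the forward strand.

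The marker genes, which the rule used, were also read in CD8 cells. In CD8 cells, defined by Cd8a and Cd8b1 without Cd4, 2.61% had Cxcr5 and 3.11% had Bcl6, against 1.15% and 3.43% of the conventional Cd4 cells outside the membership. Pdcd1, Tox2 and Il21 were found in 0.361%, 0.100% and 0.0602% of CD8 cells. With at least 2 of the 5 markers required, 10 of 4981 CD8 cells qualified, or 0.201% (exact 95% interval 0.0963 to 0.369%). Among conventional Cd4 cells 1.55% qualified (1.23 to 1.93%), although their median depth of 2430 molecules was below the 2821 of CD8 cells. These shares describe the rule and support no result, and removing cells with 2 or more markers lowers the shares outside the membership.

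T follicular helper-like cells made up 1.40% of conventional Cd4 cells in the saline pool (24 of 1720, exact 95% interval 0.896 to 2.07%). The share was 1.56% at 4 h (26 of 1672, 1.02 to 2.27%) and 1.70% at 8 h (31 of 1825, 1.16 to 2.40%). The ratio to saline was 1.11 at 4 h (0.615 to 2.03) and 1.22 at 8 h (0.692 to 2.17), and 8 h stood to 4 h as 1.09 (0.628 to 1.92). All 3 intervals hold 1, so no difference in the share was detectable with this number of cells, and a rise or fall within those bounds could not have been seen. Each treatment is 1 pool, so no test between treatments exists and intervals cover counting error only. With at least 3 markers the shares were 0.756%, 0.598% and 0.877%, which places 4 h lowest. With each cell thinned to 1500 molecules they were 0.828%, 1.24% and 1.15%, which places 4 h highest. The thinning left out 83, 77 and 95 shallower conventional Cd4 cells of the saline, 4 h and 8 h pools, and the rule was applied anew to the thinned cells, Cd4 included.

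**Figure D1:**
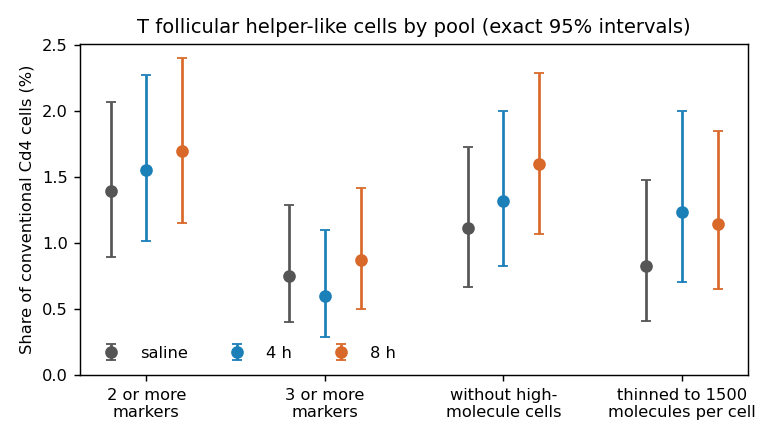
Share of conventional Cd4 cells called T follicular helper-like (y axis, percent) in the saline, 4 h and 8 h pools under 4 settings (x axis). Points are shares and bars are exact 95% intervals, which overlap between pools in every setting, as with 1.40%, 1.56% and 1.70% under the membership rule.

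Genes outside the rule were tested between members and other conventional Cd4 cells within the 3 pools. The members had higher levels of the follicular regulator Maf, of the costimulator Icos and of Tbc1d4, and lower levels of the naive-cell genes Il7r, Igfbp4 and Satb1. edgeR's quasi-likelihood test on summed molecules, with pool as a block, called 524 of 9228 genes higher in members (5.68%) and 511 lower (5.54%) at a false discovery rate (FDR) under 0.05. The 3 pools differ in treatment and are not replicates of one condition, so the p-values measure the spread of the class difference over these pools. Either direction was called for 11.2% of genes, and the 3 pools of the classes did not overlap for 37.0%. When the high-molecule cells were left out, 304 of 9007 genes were higher (3.38%) and 377 lower (4.19%), 7.56% in all. Without the saline pool the counts were 125 and 145.

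Transcription factors of the follicular programme moved both ways. Of 18 listed factors 6 were higher in members, 6 were lower and 6 were not called, with a median log2 difference of 0.90 against -0.09 over all genes tested. Maf, which promotes interleukin 21 production, stood at 859, 813 and 1435 CPM in the members of the saline, 4 h and 8 h pools and at 66.2, 78.2 and 80.8 CPM in the other cells. No member pool came near a comparator pool, and the log2 difference was 3.60 (SE 0.18, FDR 7.82e-13). It was detected in 71.6% of members and in 7.28% of the other cells. Nfatc1, a calcineurin-dependent factor, read 588, 436 and 1155 CPM in members against 168, 168 and 173 CPM, a log2 difference of 1.87 (SE 0.21, FDR 5.87e-07). Tox and Pou2af1 were also higher, by 1.28 and 2.38 on the log2 scale.

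Ascl2 and Cebpa were nearly confined to the members by count. Ascl2, a helix-loop-helix factor that induces Cxcr5, gave 15 molecules in 10 of 81 members and 3 molecules in 3 of 5136 other cells (FDR 5.77e-06). Cebpa gave 25 molecules in 12 members and was found in 3 other cells (FDR 1.51e-06). Both genes were detected in few members, and the 8 h pool held 7 of the 10 cells with Ascl2 and 8 of the 12 with Cebpa. Both were too rare in the other cells to pass the filter on low values there. They were tested only because the members had them, so the FDR adds no support for the direction.

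Factors that hold T cells in a naive state were lower in members. Lef1 read 224, 232 and 140 CPM in members and 824, 823 and 856 CPM in the others, a log2 difference of -2.22 (SE 0.20, FDR 2.39e-08). Bach2, Klf2, Foxp1 and Foxo1 fell by 1.96, 1.78, 1.10 and 1.04 on the log2 scale. Tcf7, which encodes TCF-1 and is kept in follicular helper cells, lay just inside the threshold at -0.41 (SE 0.14, FDR 0.0499). Its difference was -0.28 and not called (FDR 0.187) once the high-molecule cells were left out.

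Receptors and molecules of B cell help were higher far more often than lower. Of 22 listed genes 12 were higher, 1 was lower and 9 were not called, and the median was 1.12. Icos, the costimulator that sustains these cells, read 317, 339 and 932 CPM in members and 109, 117 and 110 CPM in the others. The lowest member pool was above the highest comparator pool, and the log2 difference was 1.98 (SE 0.24, FDR 3.02e-06). Sh2d1a, which encodes the adaptor SAP, was higher by 1.55 (SE 0.24, FDR 6.97e-05) and its partner receptor Slamf6 by 1.24. Tigit, an inhibitory receptor, read 54.2, 29.0 and 121 CPM against 1.85, 0.968 and 3.30 CPM, a log2 difference of 4.83 (SE 0.66, FDR 1.14e-05). Tigit was too low in the other cells to pass the filter on those cells alone, so its FDR adds no support for the direction.

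Further receptors on the same list fell on the same side. Izumo1r, which encodes folate receptor 4, was higher by 1.33, Tnfsf8, the CD30 ligand gene, by 2.21 and Cd200 by 2.38. Tnfrsf4, the OX40 gene, was higher by 2.995 and Ctla4 by 2.64. S1pr2, a receptor that retains cells in germinal centres, was higher by 1.99 (SE 0.62, FDR 0.0366) from 15 molecules in members. Il6ra, the interleukin 6 receptor gene, was the 1 gene called lower, at -1.27 (SE 0.20, FDR 5.44e-05). Cd40lg read 108, 174 and 140 CPM in members against 84.7, 88.6 and 76.4 CPM and was not called (0.59, SE 0.27, FDR 0.194). It was called higher, at 1.10 (FDR 0.00616), without the high-molecule cells, and the list then had 15 genes higher and 1 lower.

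Secreted and intracellular products of follicular helper cells were read from fewer molecules. Of 14 listed genes 7 passed the filter on low values, 5 were called higher and none lower. Angptl2 and Sostdc1 were too rare in the other cells to pass on those cells alone. For such genes a lower call was hardly possible, so the absence of lower calls carries no weight. Tbc1d4, a Rab GTPase-activating protein, read 488, 668 and 960 CPM in members against 57.4, 62.7 and 66.2 CPM, a log2 difference of 3.31 (SE 0.19, FDR 1.22e-11). Tnf was higher by 1.95 and Angptl2, an angiopoietin-like secreted protein, by 5.22. Lif was called higher from 21 molecules, of which 76.2% came from 1 cell. Il4 gave 6 molecules in 4 of the 81 members and was found in 12 of the 5136 other cells, and it did not pass the filter. Il4 was therefore not tested.

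Sostdc1, a secreted antagonist of BMP and Wnt signals, had the largest named difference. Sostdc1 was tested only because the members had it, so the FDR adds no support for the direction. It lies at chr12:36314139-36318452 on the forward strand of GRCm38. The members read 108, 474 and 317 CPM and the other cells 3.01, 0 and 1.32 CPM, a log2 difference of 7.35 (SE 0.62, FDR 1.21e-08). It came from 12 of the 81 members, 3 in the saline pool, 3 at 4 h and 6 at 8 h, against 7 of 5136 other cells. The level in a pool rested on few cells, since a single cell gave 64.3% of the saline pool's Sostdc1 molecules and 51.0% of those at 4 h.

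The remaining genes of the 12 with the largest positive differences fell into a few kinds. Among them only Pclaf, Rrm2 and Kif15 could have passed the filter on the other cells alone. Rgs16, a regulator of G protein signalling, was higher by 5.97 and Bhlhe40, a helix-loop-helix repressor, by 3.91. Stx11, a syntaxin of lytic granule release, was higher by 4.22, Slc22a15, a solute carrier, by 4.19, Spock2, an extracellular proteoglycan, by 4.17 and Cybb, a subunit of NADPH oxidase, by 4.10. Pclaf, Chaf1a, Rrm2 and Kif15 act in DNA replication or mitosis, and they were higher by 4.09, 3.96, 3.87 and 3.86. With the high-molecule cells left out, Pclaf and Kif15 were called higher (2.42 and 3.35), while Chaf1a and Rrm2 did not pass the filter.

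The bases just before the start of 10 of these 12 genes could be read from RefSeq. The stretches of Angptl2 and Stx11 are shown because they hold CAGCTG, here in capitals. CAGCTG is an E-box of the kind that helix-loop-helix factors such as ASCL2 can bind. The Angptl2 stretch is chr2:33215711-33215960 on the forward strand and the Stx11 stretch is chr10:12964260-12964509 on the reverse strand, both on GRCm38.p6 and written 5′ to 3′.
Angptl2: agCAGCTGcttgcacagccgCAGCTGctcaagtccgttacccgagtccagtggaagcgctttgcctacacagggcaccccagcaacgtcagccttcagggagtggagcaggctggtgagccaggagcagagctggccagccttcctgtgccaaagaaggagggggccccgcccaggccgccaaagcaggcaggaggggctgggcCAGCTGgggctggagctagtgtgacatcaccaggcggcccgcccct
Stx11: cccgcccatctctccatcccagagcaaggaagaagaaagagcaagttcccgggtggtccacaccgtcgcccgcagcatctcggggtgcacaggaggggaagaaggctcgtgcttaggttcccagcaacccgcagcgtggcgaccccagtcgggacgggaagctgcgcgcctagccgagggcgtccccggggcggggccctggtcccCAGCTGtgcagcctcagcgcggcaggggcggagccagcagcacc
CAGCTG was in 2 of the 10 stretches, with 3 copies before Angptl2 and 1 before Stx11, and in 12.8% of 27025 promoter stretches of the same length. Besides CAGCTG, the search on both strands covered the E-box CACCTG, the AP-1 motif TGANTCA, the palindrome TTCNNNGAA, the TCF/LEF motif CTTTGA, the MAF half-site TGCTGA and the NFAT motif TGGAAA. Each of the 7 motifs was in at most 2 of the 10, against 6.87% to 18.7% of all promoters, so none is reported as particular to these genes.

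Genes of naive and recirculating T cells were lower as a group. Of 12 listed genes 11 were lower and none higher, with a median of -2.13. Il7r, the interleukin 7 receptor gene, read 85.1, 310 and 252 CPM in members against 1032, 1045 and 1023 CPM, a log2 difference of -2.48 (SE 0.23, FDR 2.72e-08). Ccr7 fell by 1.79 and S1pr1, which lets cells leave lymphoid tissue, by 1.41. Igfbp4 and Satb1, both high in naive cells, fell by 3.98 and 3.51. Gpr183, the oxysterol receptor of the follicle edge, was not called (-0.35, FDR 0.440). Some members kept naive genes, since 17.3% had Ccr7, against 48.0% of the other cells.

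The Igfbp4 and Satb1 left in members came largely from the high-molecule cells. Those cells gave 86.4% of the 22 Igfbp4 molecules and 60.7% of the 28 Satb1 molecules. In the remaining cells the differences were -6.17 for Igfbp4 and -4.17 for Satb1. Ccl5, a chemokine of effector cells, was found in 3 members, and 1 cell gave 93.3% of its 30 molecules. Whether such cells hold the RNA of more than 1 T cell was not tested.

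The 12 genes with the largest negative differences all had 0 molecules in members, so they passed the filter through the other cells alone. Given 3 molecules as the floor over all members, Enpp4 was at least 4.81-fold lower, Atp8b4 and Cnn3 at least 4.30-fold, Hid1 at least 3.99-fold and Acvrl1 at least 2.83-fold. Myo6, Rnf130, Taf4b, Myo10, Xkrx, Polrmt and Tmem108 followed at between at least 2.72-fold and at least 2.11-fold. The last 6 of these, from Rnf130 on, were not called without the high-molecule cells, with FDR between 0.0656 and 0.132. Their levels in the other cells were low, a mean of 42.6 CPM for Enpp4 and 20.1 CPM for Xkrx, so the members' depth limits what these bounds can show.

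**Figure D2:**
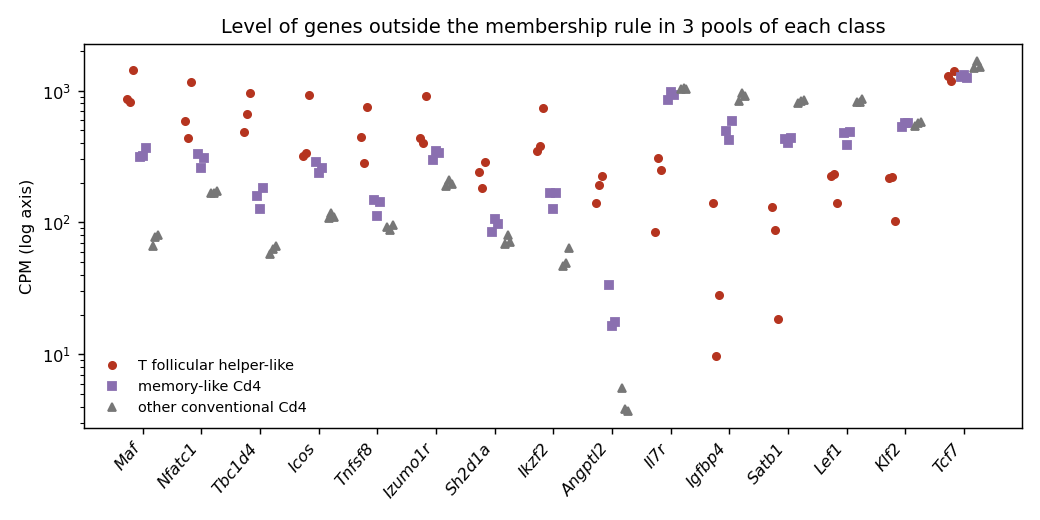
Level of 15 genes outside the rule (CPM, log axis) in each of the 3 pools for T follicular helper-like cells, memory-like Cd4 cells and other conventional Cd4 cells, 1 symbol per pool. Maf, Tbc1d4 and Tnfsf8 are highest in the follicular helper-like cells, and Igfbp4, Satb1 and Lef1 are lowest there, with no overlap between member and other conventional pools.

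Memory-associated genes were higher in members. Of 14 listed genes 13 passed the filter, 10 were called higher and none lower. Cd44, the hyaluronan receptor of antigen-experienced cells, read 263, 290 and 345 CPM against 56.7, 76.5 and 69.3 CPM (2.0001, SE 0.23, FDR 9.09e-07). S100a6, S100a11 and Itgb1 were higher by 2.96, 2.14 and 1.86. At least 2 of the 5 memory genes S100a4, Itgb1, Cxcr3, Lgals1 and Id2 were found in 56.8% of members and in 12.1% of the other cells.

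Genes tied to repeated or restrained receptor signalling were also higher. Of 14 genes on the anergy and inhibitory list 12 passed the filter, 8 were called higher and none lower. Ikzf2, the Helios gene, read 348, 377 and 736 CPM in members against 47.0, 48.9 and 63.6 CPM (2.99, SE 0.21, FDR 5.23e-10). Egr2 was higher by 3.33, Lag3 by 4.48, Nt5e, which encodes CD73, by 2.41 and Nrp1 by 2.40. Of 16 genes of the early T cell receptor response 14 passed the filter, and Egr1, Egr2, Nr4a1, Nr4a3 and Nfkbid were called higher while Junb was lower. Without the high-molecule cells 7 were higher and none lower, with Junb at an FDR of 0.112. At least 3 of Egr1 to Egr3 and Nr4a1 to Nr4a3 were found together in 12.3% of members (exact 95% interval 6.08 to 21.5%) and in 1.85% of the other cells.

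Lineage genes of other helper cells gave a mixed picture. Of 13 type 1 helper genes 11 passed the filter, with Cxcr3, Tbx21 and Eomes higher and Ly6c2 lower. Cxcr3, a chemokine receptor under T-bet control, read 170, 48.4 and 279 CPM against 21.3, 40.4 and 28.2 CPM (2.34, SE 0.40, FDR 0.000169). Tbx21 and Eomes rested on 12 and 24 molecules and were not called without the high-molecule cells. Of 7 type 2 genes 2 passed the filter and of 8 type 17 genes 1 did, and none of these was called over all cells.

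Genes induced by glucocorticoids were mostly lower in members. Of 16 listed genes 2 belong to the membership rule, 13 were tested, 7 were lower and 1 was higher. Tsc22d3, the GILZ gene, read 15.5, 38.7 and 9.32 CPM in members against 156, 107 and 101 CPM (-2.72, SE 0.44, FDR 8.96e-05). Txnip and Btg1 fell by 1.88 and 1.37, while Fkbp5 was higher by 1.46. The list shares Il7r with the naive genes. Interferon-stimulated genes differed little, with 18 of 20 tested, Ifi27l2a higher by 0.75 and Ifi203 and Ifi47 lower.

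Proliferation genes were higher in members, and most of these calls were lost without the high-molecule cells. All 15 proliferation genes were called higher, and without the high-molecule cells 12 were tested and 2 were called, Mki67 and Top2a. The median log2 difference went from 2.65 to 0.12. Mki67 read 735, 213 and 279 CPM in members against a mean of 38.6 CPM in the others. Of 13 glycolysis genes tested 5 were higher, and without the high-molecule cells Gapdh alone was called. Mki67 or Top2a was detected in 34.6% of members and in 4.36% of the other cells.

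The number of markers in a cell went with genes the rule did not use. Summed over cells with 0, 1, 2, 3 and 4 markers, Maf read 56.2, 298, 579, 1579 and 1788 CPM. Tbc1d4 read 51.7, 186, 377, 1102 and 1186 CPM over the same classes. Il7r ran the other way, at 1072, 576, 292, 102 and 56.5 CPM. These classes hold 4805, 331, 42, 25 and 14 cells, with median depths of 2410, 2802, 2872, 2931 and 2619.5 molecules. Most of the high-molecule members had 2 markers, and 1 of them gave 22016 of the 198719 molecules of that class. The levels by marker number were not computed without these cells. The part of depth in these values was not tested. The values are a description over cells of all 3 pools, with no test.

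**Figure D3:**
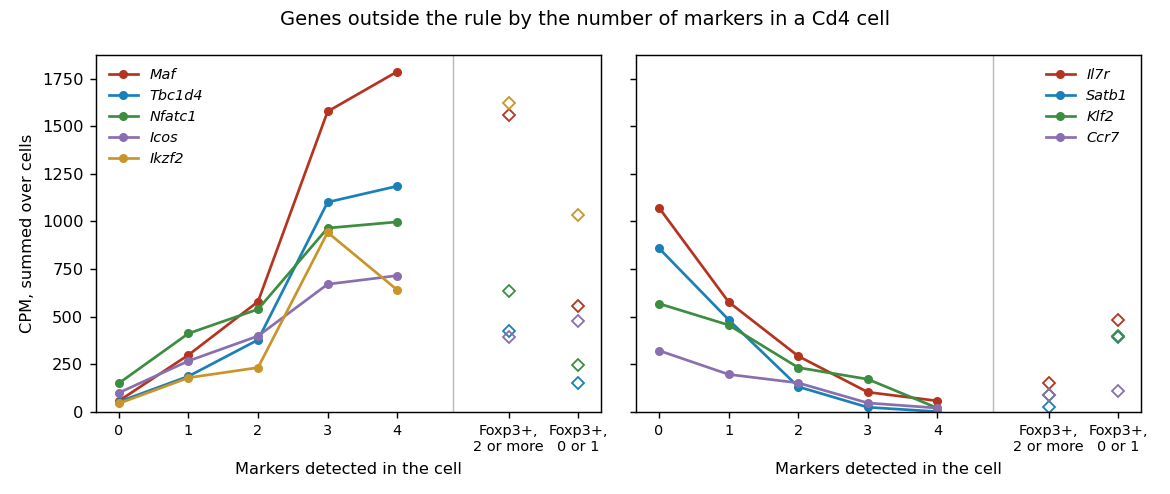
Summed level (CPM) of 5 genes that were higher (left) and 4 that were lower (right) in members, by the number of the 5 markers detected in a conventional Cd4 cell (x axis), with Foxp3-positive Cd4 cells as open diamonds. Maf reaches 1788 CPM and Satb1 0 CPM in cells with 4 markers.

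Regulatory T cell genes other than Foxp3 were present in members. Of the 5 genes on that marker list Foxp3 was 0 by the rule and Lrrc32 was also at 0. Of the 3 tested, Ikzf2 and Ctla4 were called higher than in other conventional Cd4 cells. The list summed to 457, 474 and 950 CPM in members against 84.2, 88.8 and 107 CPM in the other cells. Most of that sum was Ikzf2, and Ctla4 gave 34 molecules and Il2ra 13. The rule on Foxp3 removed 32 cells that had at least 2 markers, of which 24 had none of the other barred genes. In those 24 cells Il2ra read 748 CPM and Lrrc32 121 CPM, against 38.2 and 0 CPM in members. Tnfsf8 ran the other way, at 48.3 CPM against 491 CPM, and Sostdc1 was 0 against 285 CPM. Maf was high in both, at 1561 and 1027 CPM. The part of Foxp3-low regulatory cells in the Ikzf2 and Ctla4 results was not tested.

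B cell and myeloid marker lists were not lower in members than in the other conventional Cd4 cells. Over all pools the B cell list summed to 382 CPM against 332 CPM, and the myeloid list to 112 CPM against 87.2 CPM. Of 12 B cell genes 7 were detected in members, and Cd79a, which the rule bars, Ms4a1, Ebf1 and Fcmr were among those at 0. The list summed to 294, 377 and 494 CPM in members and to 334, 365 and 299 CPM in the other cells, mostly as Ighm. Cd22, an inhibitory receptor of B cells, was called higher in members (3.57, SE 0.66, FDR 0.000485), from 20 molecules in 11 cells. Of 7 myeloid genes 5 were at 0 in all members, and neutrophil and erythroid genes were all at 0.

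Fewer genes differed between members and memory-like Cd4 cells. This comparator held the 623 conventional Cd4 cells outside the membership with at least 2 of the 5 memory genes named above. Here 144 of 5624 genes were higher in members (2.56%) and 137 lower (2.44%). Of the genes called higher, 136 were also called higher against all other conventional Cd4 cells, which is 94.4% of this list and 26.0% of the longer one, though the comparators share cells and the members are the same. The pools of the classes did not overlap for 27.4% of genes. With the high-molecule cells left out, 120 of 5161 genes were higher (2.33%) and 109 lower (2.11%), 4.44% in all. Without the 8 h pool the counts were 57 and 29.

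Against memory-like cells the follicular lists were called in part. Of 14 transcription factors tested 4 were higher, 2 were lower (Lef1 and Klf2) and 8 were not called, and of 21 help genes tested 6 were higher, 1 was lower (Il6ra) and 14 were not called. Maf stood at 316, 319 and 364 CPM in memory-like cells, all below the lowest member pool, a log2 difference of 1.56 (SE 0.17, FDR 4.06e-05). Tbc1d4 was higher in members by 2.11 (SE 0.20, FDR 6.09e-06), Tnfsf8 by 1.78, Tigit by 2.80, Sh2d1a by 1.26 and Nfatc1 by 1.17. Tigit was too low in memory-like cells to pass the filter on those cells alone, so its call adds no support for the direction. Icos read 289, 236 and 258 CPM in memory-like cells and was not called (0.87, SE 0.25, FDR 0.0536). It was called, at 1.17 (FDR 0.00936), in cells that were not high in molecules. Ikzf2 was again higher, by 1.58.

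The named genes with the largest positive differences from memory-like cells overlapped those above. Apart from Tbc1d4, they were too low in memory-like cells to pass the filter on those cells alone. Sostdc1 led at 4.87 (SE 0.60, FDR 8.21e-05), followed by Egr2 at 3.10, Angptl2 at 3.004 and Marcksl1, an actin-regulating protein, at 2.84. Slc22a15, Spock2, Stx11, Nr4a1 and Tbc1d4 came next, between 2.60 and 2.11. Phactr2 at 2.09, Tnfsf11, the RANK ligand gene, at 2.02 and Ppa1 at 2.02 closed the 12. Ppa1 was not called without the high-molecule cells (FDR 0.251).

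Of 13 type 1 helper genes 10 were tested against memory-like cells, 5 were lower and none higher. Ccl5 fell by 2.42 and Nkg7 by 1.42. Ccr2, a chemokine receptor of inflamed tissue, had 0 molecules in members and 157 in memory-like cells, at least 9.25-fold lower at the floor of 3 molecules. Ly6c2 gave 1 molecule in members against 303 and Il18rap 1 against 94. Igfbp4, Cd7 and Txk, a kinase of T cells, fell by 3.05, 2.93 and 2.89. Pik3ip1 and Ly6c1 gave 3 and 2 molecules in members against 165 and 121. Ifi208, Sfn, Crim1 and Ifit1bl1 completed the 12, each from at most 4 member molecules. All 12, and Ccl5, were too low in members to pass the filter on those cells alone. For such genes a higher call was hardly possible, so the lower calls add no support for the direction. Without the high-molecule cells Crim1, Il18rap and Ifit1bl1 were not called (FDR 0.0545, 0.0677 and 0.0920), and Sfn and Ly6c1 did not pass the filter.

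Inside the members, the 3 treatments were compared as ratios of CPM between single pools, without a test. A gene entered with at least 50 molecules over the 2 pools compared and was counted past a ratio of 1.5. At 4 h against saline 77 of 800 genes were higher (9.62%) and 71 lower (8.88%). At 8 h against saline 95 of 798 were higher (11.9%) and 89 lower (11.2%), and at 8 h against 4 h 76 of 708 were higher (10.7%) and 83 lower (11.7%). Both comparisons with saline share its 24 cells. In the cells that were not high in molecules, where fewer genes had enough molecules, the counts were 23 and 26, 41 and 36, and 47 and 37.

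Icos and Izumo1r, both on the list of B cell help, were higher in the members at 8 h. Icos stood at 317 CPM in saline, 339 at 4 h and 932 at 8 h, which gives 2.94-fold over saline (95% counting interval 2.02 to 4.33) and 2.75-fold over 4 h (1.85 to 4.17). The ratio to saline was 2.13 without the high-molecule cells and 2.05 with every cell weighted equally. The same restriction moved 4 h against saline from 1.07 (0.660 to 1.72) to 0.419 (0.202 to 0.820) and 8 h against 4 h to 5.08 (2.84 to 9.88), so 4 h was then lowest. In the other conventional Cd4 cells Icos was level, at 1.01-fold over saline (0.892 to 1.15). Izumo1r at 8 h was 2.09-fold over saline (1.49 to 2.95) and 2.28-fold over 4 h (1.57 to 3.37), or 1.49-fold and 1.60-fold without the high-molecule cells. Of the 9 help genes with enough molecules, 4 were past 1.5-fold higher at 8 h against saline (Icos, Izumo1r, Tnfsf8 and Ly9, the last at 1.53 with an interval of 0.845 to 2.81) and none lower. Without the high-molecule cells Icos and Ly9 alone were past 1.5-fold higher, and Slamf6 was lower at 0.572 (0.371 to 0.878).

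Nfatc1, Tnfsf8, Maf and Ikzf2 were likewise highest in the 8 h pool. Nfatc1 at 8 h was 2.65-fold over 4 h (1.87 to 3.82), and 2.58-fold without the high-molecule cells. Over saline it was 1.96-fold (1.46 to 2.65), but 1.33-fold without the high-molecule cells (0.952 to 1.87). Tnfsf8 was 2.69-fold over 4 h (1.74 to 4.26). Over saline it was 1.71-fold, but 1.30-fold (0.882 to 1.95) without the high-molecule cells and 1.01-fold with every cell weighted equally, and 1 cell gave 28.4% of its 8 h molecules. Maf was 1.77-fold over 4 h (1.34 to 2.33) and 1.67-fold over saline, or 1.36-fold over saline without the high-molecule cells. Ikzf2 was 2.11-fold over saline (1.45 to 3.12) in members and 1.35-fold (1.13 to 1.63) in the other conventional Cd4 cells. Without the high-molecule cells the Ikzf2 ratio in members was 3.26 (1.88 to 5.99). It was 1.66 with every cell weighted equally, and 1 cell gave 48.9% of the saline pool's Ikzf2 molecules. Hif1a, the hypoxia-inducible factor gene, was 3.07-fold over 4 h and Trp53inp1, a target of p53, 2.84-fold.

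Ptpn11, Rgs10, Gpm6b, H2-K1, Trim8 and Lax1 were also among the 8 genes named as higher at 8 h against saline. Ptpn11, the phosphatase SHP-2 that acts below PD-1, was 3.61-fold higher (2.05 to 6.67), and 2.60-fold without the high-molecule cells. Rgs10 was 2.79-fold and Trim8 2.61-fold higher. H2-K1, a class I heavy chain, was 1.86-fold higher, Gpm6b 2.97-fold and the adaptor Lax1 2.81-fold, and these 3 ratios were 1.36, 1.31 and 1.82 without the high-molecule cells. The marker genes themselves, which chose the cells, read 1029, 890 and 1602 CPM together in the saline, 4 h and 8 h pools. At 8 h against 4 h Gpm6b was 3.11-fold and Ms4a4b 2.08-fold higher (1.14 without those cells), and in other conventional Cd4 cells Gpm6b was 1.97-fold higher too.

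Vim was lower in the members at 8 h with and without the high-molecule cells. Vim, the intermediate filament vimentin, stood at 913 CPM in saline, 803 at 4 h and 279 at 8 h, a ratio of 0.306 to saline (0.198 to 0.460) that was also 0.306 without the high-molecule cells. In the other conventional Cd4 cells the Vim ratio was 1.01 (0.936 to 1.08). At 8 h against 4 h the Vim ratio in members was 0.348, and 0.230 without the high-molecule cells. S1pr1, the exit receptor, was 2.001-fold over saline at 4 h (1.18 to 3.44) and stood at 0.385 of the 4 h level at 8 h (0.201 to 0.703).

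Of the 5 early-response genes with enough molecules, 3 were past 1.5-fold higher at 4 h against saline, namely Egr1, Junb (2.17) and Dusp2 (1.59), while Jund was at 1.01 and Nfkbid at 0.993. Dusp2 was at 0.652 and Nfkbid at 0.636 without the high-molecule cells. Egr1 was 2.63-fold over saline at 4 h (1.51 to 4.72) and 2.41-fold at 8 h (1.37 to 4.35). Without the high-molecule cells Egr1 was 1.89-fold (1.03 to 3.56) and 1.54-fold (0.865 to 2.86), and the 8 h interval then held 1. With every cell weighted equally the ratios were 2.52 and 1.45. A single cell gave 37.5% of the Egr1 molecules at 8 h, and another gave 35% of those in saline. In the other conventional Cd4 cells Egr1 was 0.773-fold and 0.747-fold. Pim1, a kinase induced by cytokines, was 2.94-fold over saline at 4 h (1.63 to 5.54), and 3.43-fold without the high-molecule cells. Sostdc1 was 4.38-fold over saline at 4 h (2.38 to 8.59), a value that 1 cell in each pool dominates, as given above, and that was 10.1 without the high-molecule cells. Hspa8, a chaperone, was 2.22-fold higher at 4 h and 1.33-fold without the high-molecule cells.

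Several named genes had other ratios without the high-molecule members. Rsl1d1, Nolc1, Nop56 and Hspd1 were 3.95-fold, 3.02-fold, 2.37-fold and 2.31-fold over saline at 4 h. In the other members they were at 0.801, 0.859, 0.442 and 0.396 of saline. At 8 h against 4 h Rsl1d1, Nop56, Npm1, Cct2, Ncl, Ybx3 and Nolc1 stood between 0.225 and 0.407, and Npm1 went from 0.407 to 1.997 once those cells were left out. Top2a was at 0.293 of saline at 4 h and 0.186 at 8 h, and Mki67 at 0.290 and 0.380. Stmn1, Hmgb2 and Pclaf were lower in both comparisons with saline, and Lig1 and Dnajc9 at 8 h. Hmgb2 stood at 1.29 and 1.74 times saline without the high-molecule cells, Lig1 at 3.47 and Dnajc9 at 0.926. Mki67 in the same cells was 5.15-fold over saline at 4 h (0.576 to 244), from 5 molecules against 1, and Top2a was 5.56-fold at 8 h (1.69 to 28.8), from 24 against 3. S100a6 and Ms4a4b were at 0.356 and 0.437 of saline at 4 h, and at 1.03 and 0.785 without those cells.

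**Figure D4:**
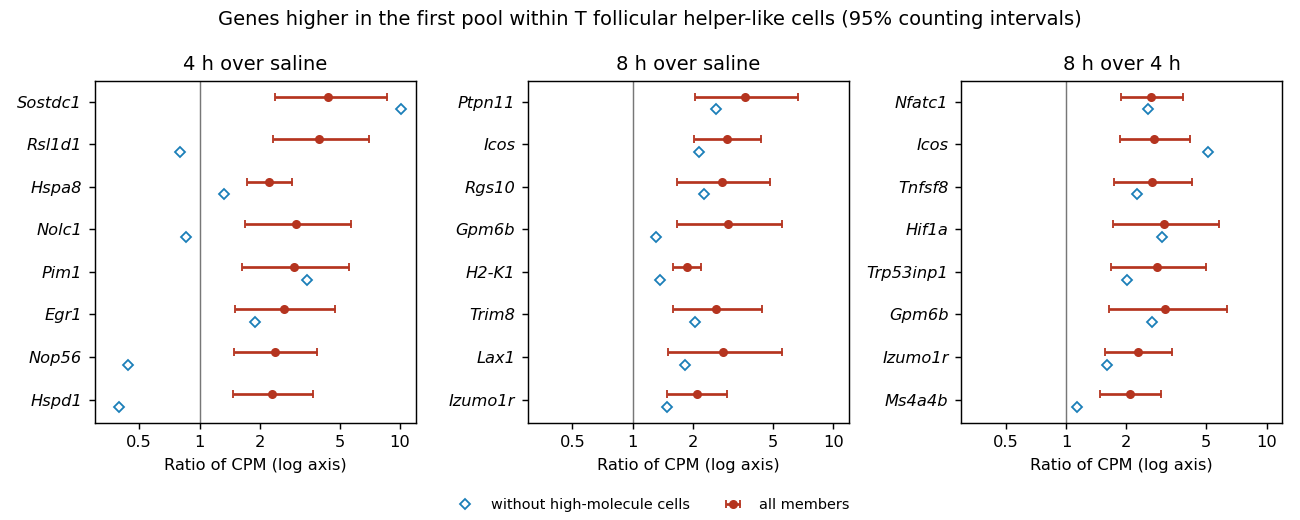
Ratio of CPM between pools (x axis, log scale) for the 8 genes with the highest lower bound in each comparison, within T follicular helper-like cells. Filled points with bars are ratios over all members with 95% counting intervals, and open diamonds are ratios without high-molecule cells, where Icos stays above 2 at 8 h and Nop56 and Hspd1 fall below 1 at 4 h.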

How the data were processed

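Single-cell RNA libraries of 3 tagged pools (saline, 4 h and 8 h, each 3 mice) were analysed. The deposited values are whole-number counts of molecules per cell and gene after error correction. Per the file headers they came from release 1.9.1 of the BD Rhapsody WTA Multiplex pipeline, run with GRCm38 and GENCODE M19. The deposited description pairs tag 8 with saline, tag 10 with 4 h and tag 9 with 8 h. The authors' calls removed 1063 multiplets, 60 undetermined cells and 2 cells of another tag from 17299. No doublet caller was run inside pools, and free RNA was not corrected.

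Cells had at least 200 genes and under 25% mitochondrial molecules. Molecules were summed per class and pool, giving 6 sums per fit, and tested with edgeR 4.0.16 (R 4.3.3, TMM scaling, filterByExpr, pool as block, quasi-likelihood test, Benjamini-Hochberg adjustment). A fit has 2 residual degrees of freedom. A gene could pass the filter through the sums of 1 class alone, which largely set the direction of its difference. Genes of the membership rule, and of the memory class in its fit, were not tested. Python 3.11.15 with scipy 1.17.1 gave exact Clopper-Pearson and conditional-binomial intervals. DESeq2 1.42.0 was an alternative. The fits were tested on simulated data. Of 50 genes raised by 2 on the log2 scale, 100% were recovered against other conventional Cd4 cells and 100% against memory-like cells. Of 50 raised by 1, 44% and 74% were recovered. Of 50 lowered by 2, 74% and 92% were recovered, and of 50 lowered by 1, 28% and 52%. The changed genes were drawn from those at or above the median count, and 1 common dispersion was used, so rarer genes were not covered.

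Named genes were the 12 with the largest log2 difference at each end among those called, with at least 60 molecules and the same sign in the 3 pools, leaving out genes of the rule, receptor and immunoglobulin segments, mitochondrial genes, Gm and Rik models and pseudogenes. Between treatments they were the 8 at each end, ranked by the interval bound nearest to 1. Genes of 14 lists were named where their list was counted. The members and lists were chosen with earlier results of these data known. Promoter stretches came from RefSeq on GRCm38.p6. Some genes the rules select are not reported here.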

Additional observations from a re-analysis of the deposited data

Results flagged for a closer look

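The marker combination was found in cells that the authors called multiplets, which carry more than 1 tag. Of 242 multiplet-called conventional Cd4 cells, 9 met the membership rule, or 3.72% (exact 95% interval 1.71 to 6.94%). Among the 5217 cells with a single tag the share was 1.55% (1.23 to 1.93%), and the intervals overlap. A multiplet can hold the RNA of more than 1 cell, so its 2 markers may come from different cells. The part of this in the 3.72% was not tested. The result comes from cells whose treatment is unknown and which no comparison used. No group of 4 or more samples existed, so the spread of samples within a group could not be examined.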

How the results depend on the processing

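The shares in the saline, 4 h and 8 h pools were 0.756%, 0.598% and 0.877% with at least 3 markers, and 0.479%, 0.507% and 0.604% of all cells with a CD3 chain. With Cxcr5 required the saline and 8 h shares were 0.872% and 1.10%, and with cells thinned to 1500 molecules 0.828% and 1.15%. Against other conventional Cd4 cells (524 higher, 511 lower), DESeq2 called 238 lower. The higher count was 219 in cells of 2000 to 4000 molecules, 209 with at least 3 markers and 304 without the high-molecule cells. Leaving out each pool in turn gave 125 to 458 higher and 145 to 462 lower. Against memory-like cells (144 and 137), DESeq2 called 54 and 46, no pool block gave 226 and 219, and no filter on low counts gave 251 lower. Leaving out each pool gave 57 to 108 higher and 29 to 112 lower. With 2 pools left, the spread rests on fewer sums, and the cause of the other changes was not tested.

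Genes past 1.5-fold between treatments, higher and lower for 4 h against saline, 8 h against saline and 8 h against 4 h in turn, were 20 and 28, 31 and 41, and 25 and 33 with at least 3 markers. Without the high-molecule cells they were 23 and 26, 41 and 36, and 47 and 37. From 20 molecules on they were 422 and 325, 462 and 376, and 330 and 412. For the named genes of the 2 class comparisons no direction turned, 409 of the recomputed values kept their side of the threshold and 80 did not. Genes without a value in a setting are not in these counts. With DESeq2, 23 of the 48 named entries kept their side and 8 did not. The rest, all against memory-like cells, had no value. The few cells limit the shares.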
